A study of Homo sapiens with 11 samples.

Results

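The ZNF genes described here are the rows of the expression table whose symbol is ZNF followed by digits, with an ending letter allowed, and whose mean over the control libraries of 786-0 cells was at least 200 units. Of 20500 entries in the table, 518 carried such a symbol, and 173 of them reached that level. Among the others, 18 were listed at 0 in every library. The 173 members were set against the 8848 other genes at the same control level. The line 786-0 comes from a human clear cell renal carcinoma without functional VHL, so all libraries share that background and represent a single line. Cells in DMEM received DMSO vehicle (6 control libraries) or everolimus at 10 µM, written "10um" in the labels, in DMSO (5 libraries), each for 4 h. Everolimus is a rapamycin derivative that binds FKBP12 and inhibits mTOR complex 1. The labels do not say whether libraries came from separate cultures, so p-values measure the spread between libraries, which may be technical.

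Levels are in units, meaning estimated read counts that the authors scaled so that the upper quartile of the values above 0 was about 1000 in each library. They are not divided by transcript length, so they compare libraries and not genes. Control libraries held 14230690 to 36828274 estimated reads and everolimus libraries 29760923 to 52522887, and 1 read was worth 0.307 to 1.05 units. A count of 3 reads thus corresponded to 0.92 to 3.15 units, far under the level of every member, and this floor covers counting error only. Of 11 markers of the renal line, 10 had a control mean of at least 200, and CA9, a hypoxia-induced carbonic anhydrase, stood at 1.41 ± 1.24 (SD, n = 6). None of 10 markers of other cell types reached that level, and CD3E and PECAM1 were at 0 in every library. The share of low values that were whole reads divided the libraries into a first set, controls 1 to 3 and everolimus 1 and 2, and a second set, controls 4 to 6 and everolimus 3 to 5. The labels name no batch.

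Most ZNF genes encode proteins built from repeated C2H2 zinc fingers, small folds in which a pair of cysteines and a pair of histidines hold a zinc ion and a helix reads bases of DNA. Fingers follow each other through a conserved linker, usually TGEKP. Many of these proteins begin with a KRAB domain, which recruits the corepressor TRIM28 and, through it, the histone methyltransferase SETDB1 and heterochromatin proteins. KRAB zinc finger proteins are known for silencing transposable elements, and many of their genes lie in clusters on chromosome 19 that arose by gene duplication. ZNF is a naming class, however, so it also covers activators, RNA-binding proteins and proteins with other kinds of finger.

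The stretches below show the repeat that gives the family its name, for members that moved in opposite directions. Each is the coding sequence of a finger and the linker after it, 78 bases from the GENCODE 29 coding transcript, and the capitals mark the codons of the cysteines and histidines that hold zinc. ZNF248 fell with everolimus, while ZNF33B, ZNF25, ZNF267 and ZNF697 rose.
ZNF248: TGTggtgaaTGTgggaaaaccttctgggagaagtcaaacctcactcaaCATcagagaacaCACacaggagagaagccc
ZNF33B: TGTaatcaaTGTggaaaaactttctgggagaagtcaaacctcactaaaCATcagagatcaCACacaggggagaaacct
ZNF25: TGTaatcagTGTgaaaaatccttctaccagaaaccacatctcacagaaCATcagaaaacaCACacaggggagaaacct
ZNF267: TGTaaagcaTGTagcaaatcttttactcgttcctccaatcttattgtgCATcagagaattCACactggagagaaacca
ZNF697: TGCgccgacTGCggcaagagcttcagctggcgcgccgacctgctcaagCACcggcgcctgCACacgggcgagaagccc
The stretches of ZNF248 and ZNF33B, both from chromosome 10, had the same base at 68 of 78 positions (87.2%). Those of ZNF25 and ZNF33B matched at 63 of 78, and those of ZNF697 and ZNF33B at 41 of 78.

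As a family, the well-expressed ZNF genes lay slightly lower after everolimus, with few large changes in either direction. By limma on log2(value + 1) with Benjamini-Hochberg adjustment over all 12668 genes tested, 62 of 173 members (35.8%) were called lower at an adjusted p under 0.05 and 38 (22.0%) higher. Among all genes tested, 55.2% were called, 27.4% lower and 27.8% higher, and among the other genes at the same level 29.5% and 29.0%. The total share called was 57.8% in the members and 58.6% in the other genes, which is close, while the split between directions leaned toward falls in the members. The rule chose members by their control level, which is one side of this contrast, so these counts are a description. In bulk RNA, fewer cells of a kind and less RNA per cell cannot be told apart. The median log2 fold change, everolimus minus control, was -0.068 over the members and -0.0069 over the other genes. A negative fold change was seen in 62.4% of members and in 51.4% of the other genes.

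The spread of the members' fold changes was narrow, with quartiles at -0.20 and 0.10 against -0.16 and 0.15 for the other genes at that level. Only 4 of 173 members (2.31%) changed by 1.5-fold or more, while 704 of the 8848 other genes (7.96%) did. These 4 were ZNF395 and ZNF117, which fell, and ZNF697 and ZNF295, which rose. All everolimus libraries lay below all controls in 36 members (20.8%) and above them in 27 (15.6%), against 17.6% and 20.3% of all genes tested (37.9% in either direction) and 19.7% and 21.5% of the other genes at that level. At the border of the rule, ZNF780B (control mean 199), ZNF584 (198) and ZNF407 (195) stood just outside. ZNF224 (200.2), ZNF44 (201) and ZNF449 (203) stood just inside. The everolimus means of the inside members were 183, 193 and 276 units, and those of ZNF780B, ZNF584 and ZNF407 were 167, 181 and 218.

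**Figure D1:**
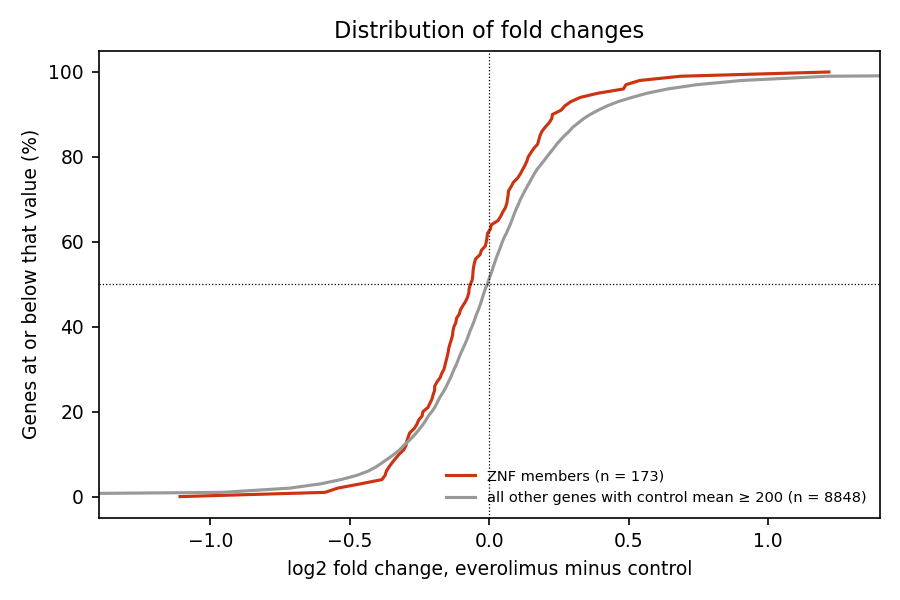
Cumulative share of genes (vertical axis, percent) against the log2 fold change, everolimus minus control (horizontal axis), for the 173 ZNF members and the 8848 other genes with a control mean of at least 200 units. The members' curve lies to the left around the middle, with medians of -0.068 and -0.0069, and is steeper on the right, where the members have few large rises; the curve of the other genes runs on beyond both ends of the axis.

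Library by library, the difference between members and other genes varied less than the level itself. The median over members of the log2 deviation from the gene's control mean was -0.0082, -0.0054, 0.047, -0.068, -0.0042 and 0.046 in controls 1 to 6. In everolimus 1 to 5 it was -0.061, -0.032, -0.040, -0.108 and -0.051. Control 4 lay below 4 of the 5 everolimus libraries, so the groups overlapped. Control 4 was the shallowest control library and everolimus 4 the shallowest everolimus library. After subtraction of the same median over the other genes at that level, the controls lay between -0.032 and 0.031 and the everolimus libraries between -0.060 and -0.039, without overlap. When every library was thinned to equal depth, 70 members (40.5%) were called lower and 28 (16.2%) higher. In that fit 53.3% of all genes were called, 31.5% lower and 21.8% higher, and 35.1% and 22.8% of the other genes at that level, so lower calls were more frequent in all 3 groups. The difference between the medians of members and other genes was then -0.050, against -0.061 without thinning.

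**Figure D2:**
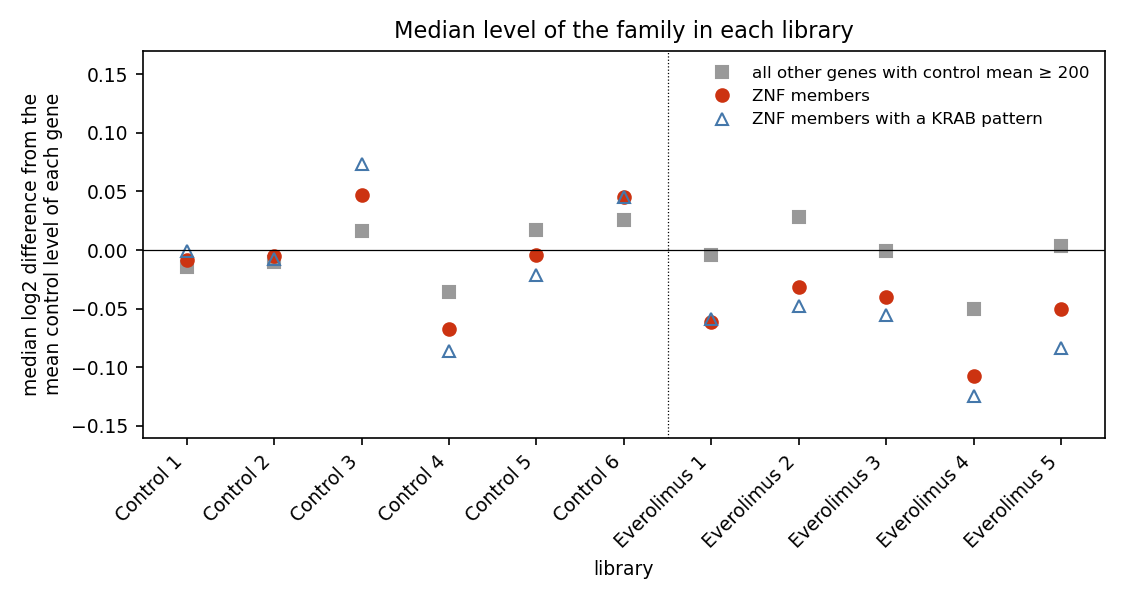
Median log2 deviation from the control mean in each of the 11 libraries (horizontal axis) for the ZNF members and the other genes at that level, with 1 symbol per library and list (circles, all members; triangles, KRAB members; squares, other genes). The members' medians overlap between groups, from -0.068 to 0.047 in controls and from -0.108 to -0.032 with everolimus. The members' median minus that of the other genes does not overlap. It lies between -0.032 and 0.031 in controls, on both sides of 0, and between -0.060 and -0.039 with everolimus.

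Coherence between members was weak. Across the 11 libraries, the mean Pearson r over pairs of members was 0.077, and over pairs of the other genes at that level 0.035. Within groups, on deviations from the group means, the values were 0.114 and 0.077. The KRAB members gave 0.148 across libraries and 0.217 within groups, and the members without a KRAB pattern 0.030 and 0.064. These correlations are across few libraries that share depth and set, and they are descriptions.

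Both library sets gave similar splits. In the first set 45 members (26.0%) were called lower and 27 (15.6%) higher, against 19.3% and 24.0% of all genes tested. The other genes at that level gave 21.7% and 26.0% there. In the second set 43 members (24.9%) were lower and 25 (14.5%) higher, against 22.5% and 21.1% of all genes tested. The other genes at that level gave 24.5% and 22.0% there. In the second set the members' share of lower calls was thus near the background. Their share of higher calls was under it in both sets. The members' medians were -0.075 and -0.079. When members were chosen from the controls of one set and the fold change was taken from the other set, which the choice had not used, 43 were lower and 25 higher in the second set and 44 and 26 in the first. Among 72 members with a call in the first set, the sign in the second set was the same for 70 (97.2%), and for the other genes at that level this share was 97.7%. The difference of the everolimus effect between sets was called in 0 of 12668 genes by limma's interaction term, with 783 genes (6.18%) and 11 members (6.36%) at an unadjusted p under 0.05.

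At high control levels, more members were called lower than higher. Of the 24 members with a control mean of at least 800, 17 (70.8%) were called lower and 5 (20.8%) higher, against 30.5% and 29.3% of the 4553 other genes there. Among the 18 at 800 to 1600 units the median log2 fold change was -0.18, against -0.019 in the 2250 other genes of that range. Among the 84 members at 200 to 400 units, 22 (26.2%) were lower and 17 (20.2%) higher, with a median of -0.054. Of the 1837 other genes in that range, 27.9% were lower and 30.3% higher, so the share of lower calls there was near the background. Across the 173 members, Pearson's r between fold change and log2 control mean was -0.213 and Spearman's rho -0.147, both descriptions across genes. The control mean enters the fold change, so the measures are not independent, and no difference between levels was tested.

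**Figure D3:**
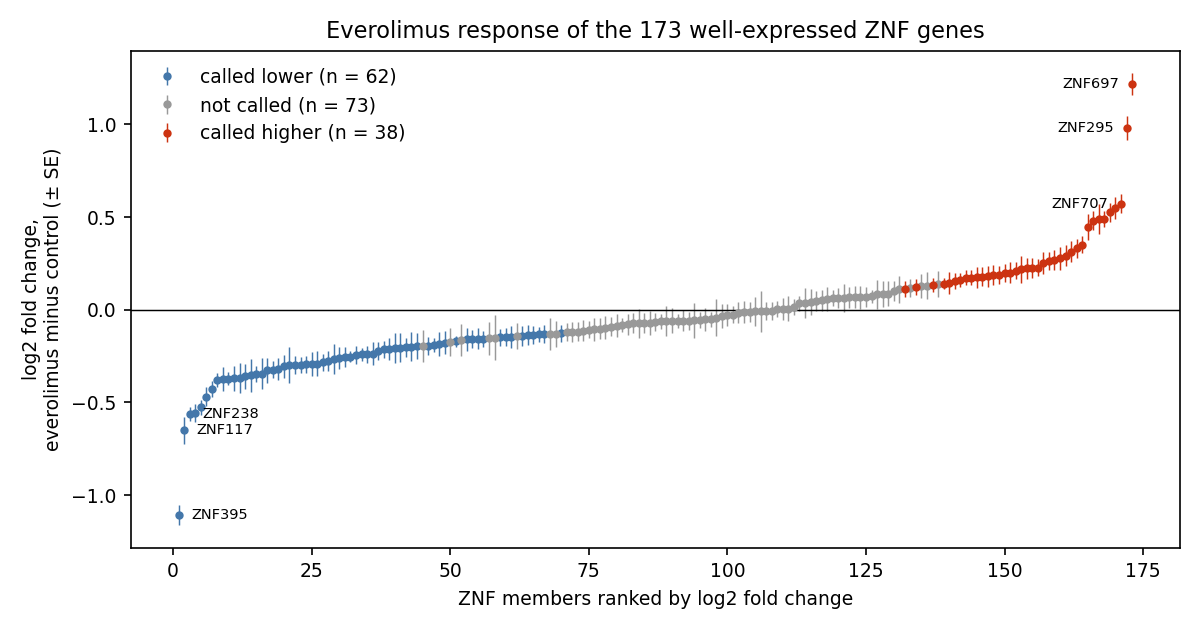
Log2 fold change of each of the 173 members (vertical axis) in order of size (horizontal axis), with the standard error as bars and colour for called lower, called higher and not called. The members run from -1.11 (ZNF395) to 1.22 (ZNF697), and most lie within a narrow band around 0.

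The largest rise belonged to ZNF697, a C2H2 gene on chromosome 1 with 11 finger patterns and no KRAB pattern. Its level was 332 units in the lowest control, 352 in the median and 418 in the highest, and 847, 806, 899, 859 and 805 units in everolimus 1 to 5. Every everolimus library lay far above the highest control. The log2 fold change was 1.22 ± 0.058 (SE; limma adjusted p 3.53e-10), or 2.33-fold. ZNF295, now named ZBTB21, encodes a BTB-domain zinc finger repressor. It stood at 290 to 379 units in controls with a median of 344, and at 670, 654, 733, 678 and 644 units with everolimus. Here too the groups were far apart, with a log2 fold change of 0.98 ± 0.063 (adjusted p 8.51e-09).

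ZNF217, a proto-oncogene amplified in breast cancers whose product works with the CoREST corepressor, had the highest level among the 8 largest rises. Its controls ran from 1161 through a median of 1249 to 1313 units. Everolimus 1 to 5 gave 1659, 1647, 1832, 1833 and 1742 units. All 5 lay above every control, and the log2 fold change was 0.49 ± 0.041 (adjusted p 1.63e-07). ZNF142, a gene with 31 finger patterns that is linked to a neurodevelopmental disorder, went from 409 ± 19.2 units (SD, n = 6) to 589 ± 39.7 (n = 5). The remaining 4 largest rises were KRAB members, ZNF707 (log2 fold change 0.57), ZNF267 (0.55), ZNF25 (0.49) and ZNF33B (0.48). Their everolimus means were 308 to 1003 units. Like the other largest rises, these 4 were picked among members called without overlap between groups.

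The largest fall was that of ZNF395, a DNA-binding protein first described as papillomavirus binding factor and known for high expression in clear cell renal carcinoma. It stood at 2780 units in the lowest control, 2994 in the median and 3220 in the highest, and at 1357, 1464, 1428, 1226 and 1503 units in everolimus 1 to 5. All everolimus libraries lay far below the lowest control. The log2 fold change was -1.11 ± 0.053 (adjusted p 3.90e-10), a 2.16-fold fall. Of the 50-base stretches in its transcripts, 41.7% were shared with another annotated gene, mostly FBXO16, so reads could be divided between them.

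ZNF238, now ZBTB18, encodes a repressor known from the development of the cerebral cortex. It stood at 892 to 1014 units in controls, median 990, and at 650, 648, 667, 658 and 665 units with everolimus. The everolimus libraries lay close to each other and below every control, with a log2 fold change of -0.56 ± 0.038 (adjusted p 1.60e-08). ZNF117 fell by 0.65 ± 0.072 on the log2 scale (adjusted p 2.85e-06), from 1008 ± 109 to 640 ± 45.3 units. Some reads could belong to ERV3-1, with which it shared 3.72% of 50-base stretches. ZNF618, which binds UHRF2, fell from 1075 ± 64.9 to 745 ± 6.30 units. The other largest falls were ZNF248 (log2 fold change -0.56), ZNF346 (-0.47), whose product binds double-stranded RNA, ZNF692 (-0.43), a repressor known as AREBP, and ZNF608 (-0.38). These 8 falls were picked among members called without overlap, so the lack of overlap follows from the choice. Each was also called in both library sets, which are parts of the same libraries.

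**Figure D4:**
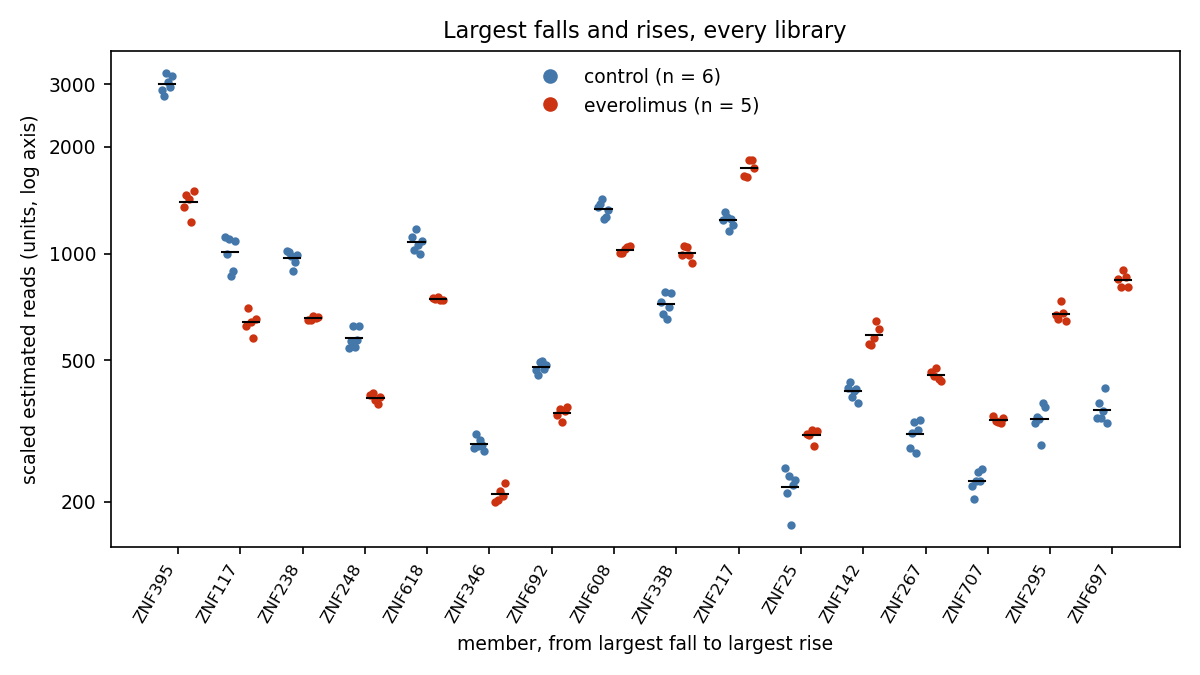
Level in units on a log axis for each library of the 8 members with the largest falls and the 8 with the largest rises among those without overlap, with controls in blue, everolimus in red and short lines at the group means. The choice required all 5 everolimus points to lie on one side of the 6 control points.

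The members with the highest control levels changed little, ZNF395 apart. ZNF207, also called BuGZ, is a microtubule-binding protein that helps load BUB3 at kinetochores. Its controls ran from 4100 to 4438 units with a median of 4333, and everolimus 1 to 5 gave 3590, 3612, 3693, 3543 and 3560. The groups did not overlap, and the log2 fold change was -0.25 ± 0.030 (adjusted p 6.01e-06). ZNF664 was 1.1-fold higher (log2 fold change 0.14 ± 0.030, adjusted p 0.000938). ZNF146, made almost wholly of fingers, overlapped between groups at a log2 fold change of -0.13 ± 0.040 (adjusted p 0.0126), and in the first library set the adjusted p was 0.144. Near the middle of the members' levels, ZNF700 (-0.37), ZNF92 (-0.27) and ZNF761 (-0.15, adjusted p 0.0255) were called lower, with ZNF700 at -0.46 in the second library set, against -0.23 in the other. ZNF761 passed in neither library set alone (adjusted p 0.0939 and 0.180). ZNF398 (-0.059, adjusted p 0.202), ZNF280D (-0.096, 0.201) and ZNF480 (-0.12, 0.0568) were not called. After thinning to equal depth, ZNF398 (-0.16, adjusted p 0.0122) and ZNF480 (-0.20, 0.0106) did pass. ZNF480 also passed with quantile normalization (0.0284), with median centring (0.0443), without control 1 (0.0315) and without control 4 (0.0310), and ZNF280D passed without control 4 (-0.14, 0.0403). The share of 50-base stretches found in another annotated gene was 20.7% for ZNF207, 21.1% for ZNF700 and 49.1% for ZNF280D, so reads could be divided there.

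ZNF143, an activator of many promoters that also takes part in chromatin looping, stood at 279 to 336 units in controls, median 303, and at 224, 251, 261, 272 and 256 units with everolimus. The groups did not overlap (log2 fold change -0.26, adjusted p 0.00190), though the second library set alone did not pass (adjusted p 0.108). ZNF148 (ZBP-89) was called lower, at a log2 fold change of -0.32, in the pooled fit and in each library set. ZNF281 (-0.14) and ZNF24 (-0.15) were called lower with overlap between groups. ZNF281 did not pass in the second set (adjusted p 0.324), and ZNF24 passed in neither set alone (0.0543 and 0.0569). ZNF638, known for silencing unintegrated retroviral DNA together with the HUSH complex, fell by 0.37 on the log2 scale without overlap, from 1812 to 1399 units. ZNF592 fell by 0.29, while ZNF687, a partner of ZNF592 in one chromatin complex, was not called (0.015, adjusted p 0.791). ZNF91, which represses SVA transposons, was not called (-0.17, adjusted p 0.121), but it was called lower in the first library set (-0.23, 0.0452) and after thinning (-0.23, 0.0434). ZNF598, the ubiquitin ligase that senses collided ribosomes, was called higher, from 736 ± 73.2 to 874 ± 30.1 units (adjusted p 0.00248), with overlap and without passing in the second set (0.0793). ZNF622, a factor of ribosome maturation, and ZNF259 (ZPR1) were not called (log2 fold changes -0.063 and 0.062).

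By structure, KRAB members and the rest had similar medians, and the 4 changes of 1.5-fold or more lay outside the KRAB group. A KRAB pattern was found in 80 members, 25 of them (31.2%) called lower and 15 (18.8%) higher, with a median log2 fold change of -0.073 and a negative value in 70.0%. In 88 members without it, 34 (38.6%) were lower and 22 higher, with a median of -0.053. All genes tested gave 27.4% lower and 27.8% higher, and the other genes at that level 29.5% and 29.0%, with a negative value in 51.4%. The KRAB share of lower calls was thus near the background, while that of higher calls was under it. None of the 80 KRAB members changed by 1.5-fold or more, against 4 of the 88 (4.55%) and 7.96% of the other genes at that level. The KRAB members ZNF707 (1.49-fold), ZNF248 (1.47-fold) and ZNF267 (1.46-fold) lay just under that size. The difference between the groups was not tested. The pattern misses some known KRAB proteins, and a looser one, chosen after the data were seen, found 85. By number of fingers, 14 of 30 members with 1 to 4 fingers (46.7%) were called lower and 9 (30.0%) higher, and of 54 with 5 to 9 fingers 16 (29.6%) and 9 (16.7%). Of 47 with 10 to 14 fingers, 20 (42.6%) were lower and 12 (25.5%) higher, and of 31 with 15 or more 8 (25.8%) and 7 (22.6%). The shares showed no steady order with the number of fingers. Pearson's r of the fold change with the number of fingers was 0.124 over 162 members, and with transcript length 0.024 over 168. The 5 members without a coding transcript, among them the pseudogenes ZNF702P and ZNF252, had 3 called lower and 1 higher.

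Members on chromosome 19 were seldom called higher. Of 48 there, 17 (35.4%) were called lower and 3 (6.25%) higher, and 79.2% had a negative fold change. Of the 125 on other chromosomes, 45 (36.0%) were lower and 35 (28.0%) higher. The other genes at that level with a matched chromosome had 26.0% lower and 20.4% higher on chromosome 19 (392 genes), and 29.6% and 30.4% elsewhere (7309 genes). The medians were -0.081 for members on chromosome 19 and -0.055 for the rest. The 36 KRAB members on chromosome 19 had 11 lower and 3 higher, and the 44 KRAB members elsewhere 14 and 12. Members of the chromosome 19 clusters with the largest falls were ZNF700 (-0.37), ZNF302 (-0.36) and ZNF714 (-0.35), and the 3 called higher were ZNF562 (0.19), ZNF525 (0.18) and ZNF544 (0.11). Several of them did not pass in every library set, though limma's interaction term called no gene different between sets. ZNF302 was at -0.48 in the second set and did not pass in the first (-0.19, adjusted p 0.0798). ZNF714, which overlapped between groups, was at -0.55 in the first set but did not pass in the second (-0.18, adjusted p 0.156). ZNF562 did not pass in the first set, ZNF525 not in the second, and ZNF544 in neither. No test of the difference between chromosomes was run.

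**Figure D5:**
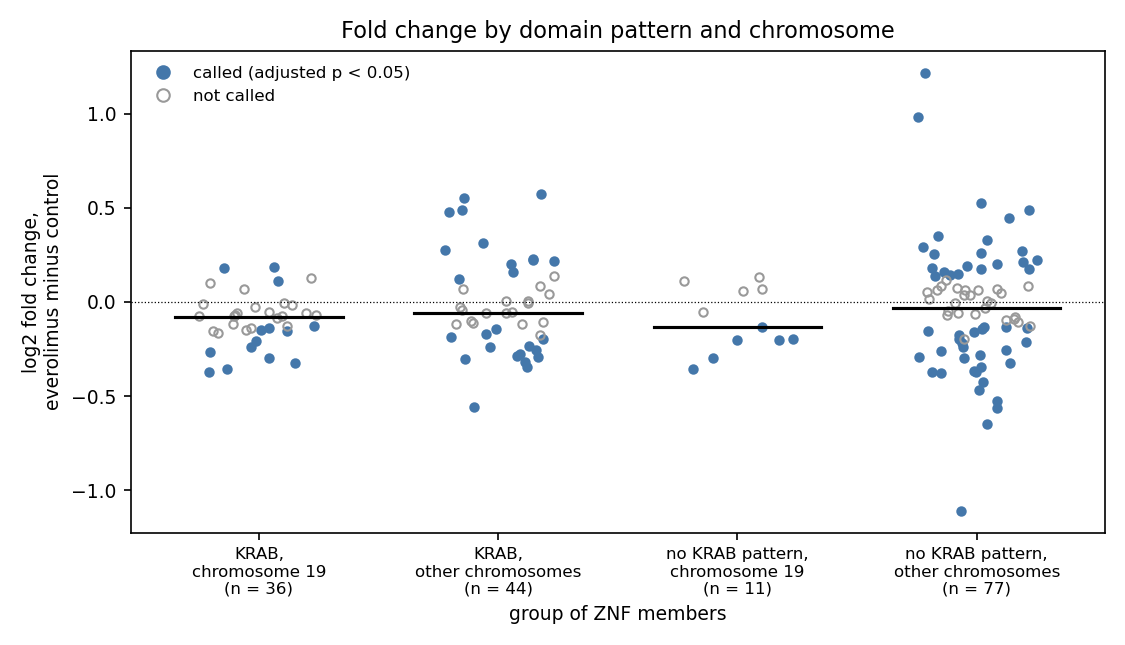
Log2 fold change of single members (vertical axis) grouped by KRAB pattern and by chromosome 19 or another chromosome, one point per member, filled where called, with the group median as a line. The chromosome 19 groups keep between -0.37 and 0.19, while the members elsewhere reach from -1.11 to 1.22.

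Chromosome 10 held 10 members, 3 called lower and 4 higher (27.4% and 27.8% of all genes tested), among them ZNF248 and ZNF33B, whose similar finger stretches are printed above. ZNF248 stood at 541 to 627 units in controls, median 568, and at 400.1, 405, 387, 377 and 396 units with everolimus. ZNF33B stood at 654 to 779 units in controls, median 718, and at 991, 1048, 1044, 989 and 942 units. Both were picked among members without overlap between groups. Their log2 fold changes were -0.56 ± 0.049 and 0.48 ± 0.051. The opposite signs in each library set follow from that choice. ZNF25 rose by 0.49, and ZNF33A, with 6.96% of its 50-base stretches shared with ZNF33B, by 0.16 (adjusted p 0.00262). ZNF37A fell by 0.19 (adjusted p 0.000734), and its pseudogene relative ZNF37B was called higher at 0.18 (adjusted p 0.0179) with overlap. In all, 42 members shared more than 5% of their 50-base stretches with other genes and 12 more than 20%, so the division of reads between such genes is uncertain. Of the 126 members with no more than 5% shared, 46 (36.5%) were called lower and 24 higher, against 27.4% and 27.8% of all genes tested.

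Several genes through which KRAB proteins repress were lower, though not the core pair. Of 31 genes on a list of TRIM28 partners and related chromatin repressors, 17 (54.8%) were called lower and 2 (6.45%) higher, against 27.4% and 27.8% of all genes tested, with a median log2 fold change of -0.11. For that pair, TRIM28 stood at 5913 ± 450 and 5789 ± 245 units (adjusted p 0.659), and SETDB1 at 645 ± 38.7 and 640 ± 15.1 (0.892). EHMT2, the histone methyltransferase G9a, stood at 1167 to 1297 units in controls, median 1225, and at 723, 766, 757, 765 and 838 units with everolimus. It fell by 0.67 ± 0.041 on the log2 scale (adjusted p 4.95e-09), without overlap. CHD3 (-0.52) and MTA2 (-0.39), of the NuRD remodelling complex, and C3orf63 (-0.40), the HUSH subunit TASOR, fell without overlap, while SIN3A rose by 0.25. Other NuRD genes on the list fell less: CHD4 (-0.19), MTA1 (-0.12), HDAC2 (-0.091) and RBBP4 (-0.085). HDAC1 (-0.015) and RBBP7 (-0.030) were not called. Of the other HUSH genes, PPHLN1 was called lower (-0.19) and MPHOSPH8 was not called (-0.11). The count of genes called lower was 9 (29.0%) in the second library set, where 22.5% of all genes were called lower, and it was 11 without everolimus 1 and 11 without everolimus 2.

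The promoters of ZNF genes were examined from RefSeq sequence of GRCh38.p14, 250 bases before to 50 after the annotated start, which was found for 145 of the 173 members. The ETS-type motif CCGGAAG, on either strand, occurred in 36.6% of members, in 21.2% of the other genes at that level and in 10.7% of all 27305 promoters. It was in 44.1% of KRAB members and in 29.9% of the rest. Among members called lower, called higher and not called, it occurred in 33.3%, 36.7% and 39.3%. The CREB-type motif TGACGTCA occurred in 6.90% of members, 3.45% of the other genes and 1.98% of all promoters, and TATAAA in 3.45% of members and 4.81% of the other genes. The promoters of ZNF267, which rose, and ZNF92, called lower, hold the same ETS-type letters, and that of ZNF295 holds the CREB-type ones, shown in capitals (CTTCCGG is CCGGAAG on the other strand). They are chr16:31873557-31873856 on the plus strand, chr7:65373605-65373904 on the plus strand and chr21:42010311-42010610 on the minus strand.
ZNF267: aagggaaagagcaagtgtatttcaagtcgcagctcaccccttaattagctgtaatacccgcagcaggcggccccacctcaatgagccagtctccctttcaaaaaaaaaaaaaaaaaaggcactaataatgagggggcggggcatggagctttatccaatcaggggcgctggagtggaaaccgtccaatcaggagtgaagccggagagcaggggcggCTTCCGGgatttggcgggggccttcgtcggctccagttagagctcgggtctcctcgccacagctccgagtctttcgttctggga
ZNF92: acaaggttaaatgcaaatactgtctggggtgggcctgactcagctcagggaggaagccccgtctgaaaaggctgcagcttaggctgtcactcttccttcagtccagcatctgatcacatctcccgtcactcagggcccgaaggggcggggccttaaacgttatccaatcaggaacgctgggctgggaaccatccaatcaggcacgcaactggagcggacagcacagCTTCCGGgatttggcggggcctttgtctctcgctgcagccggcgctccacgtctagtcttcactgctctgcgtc
ZNF295: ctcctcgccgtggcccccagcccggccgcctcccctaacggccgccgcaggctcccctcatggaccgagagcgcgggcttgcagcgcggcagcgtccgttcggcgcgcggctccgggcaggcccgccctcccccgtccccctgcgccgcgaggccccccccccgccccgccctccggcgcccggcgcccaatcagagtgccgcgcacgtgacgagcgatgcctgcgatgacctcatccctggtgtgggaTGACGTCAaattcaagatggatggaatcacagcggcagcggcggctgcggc
The motif is common in the family and its share was similar in members that rose and that fell. A match is a description of the letters and not a measured site.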

How the data were processed

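Expression was measured by RNA-seq in 786-0 cells, with RNA from a Qiagen RNeasy kit and TruSeq stranded mRNA libraries, per the labels' protocols. The deposited values are a signal: estimated counts that the authors scaled to an upper quartile (percentile 75) near 1000, with 89.4% to 93.9% of low values whole reads within 0.1 reads. The submitters' processing notes name hg19, Picard 1.64, SAMtools and RSEM without roles. No source used here gives the aligner, the annotation or the use of strand. Because not all values were whole, no count model was used.

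Groups were compared on log2(value + 1) by limma's moderated test (version 3.58.1, R 4.3.3; variance trend on), two-sided, for the 12668 genes that reached 10 units in 5 or more libraries, adjusted by Benjamini and Hochberg with a threshold of 0.05. Fold changes on this scale understate the change of low genes. All 173 members passed the filter. The script was tested on simulated data. Symbols, chromosomes and promoters came from RefSeq GRCh38.p14 (159 members matched current symbols, 14 older ones), and no hg19 coordinates are given. KRAB, SCAN and finger patterns were searched in translated GENCODE 29 coding sequences, in place of the RefSeq proteins first planned. Shared stretches are 50-base words found in another gene's transcripts.

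The members and lists were chosen with earlier results of these data known. Named genes are the 8 largest falls and 8 largest rises among members called without overlap, the 4 highest control means, 3 called lower and 3 not called nearest the median level of 404 units, 4 corepressors with the smallest p, TRIM28 and SETDB1; all other genes named were chosen after their values were seen. Alternatives covered filters, pseudocounts, scaling, thinning, library sets, the control level and leaving out each library.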

Additional observations from a re-analysis of the deposited data

Results flagged for a closer look

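In a search of 66 groups of values for a library far from the others, where chance flags about 1 in 20 groups, 2 stood out. ZNF398 had its highest control in control 2, at 426 units against 405 in the next, a gap of 0.651 of the range of the controls. Among the everolimus libraries, the distance of the members' median below that of the other genes was smallest in everolimus 3. It was -0.039 there against -0.054 in the next library, a gap of 0.749 of the range of these libraries.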

How the results depend on the processing

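Leaving out each library in turn gave 51 to 65 members called lower, 34 to 39 higher and a median of -0.084 to -0.055. The members' median minus that of the other genes at that level then ran from -0.072 to -0.053. Shares over all genes in these fits, with the replicate block and at other control levels are not given here. The counts alone thus do not show whether the background moved as well. The numbers of members at the other control levels are not given either. The corepressor list had 11 to 17 called lower, and the medians ran from -0.010 to 0.060 for ZBTB, 0.016 to 0.152 for ZFP and 0.587 to 0.634 for KLF. No paired samples were found: same-numbered libraries had correlations from -0.508 to 0.603, and the replicate block gave 50 members lower and 36 higher, with a ZBTB median of 0.060. In the second library set 25 members were higher and 9 corepressors lower; members chosen in the first set and measured in the second also gave 25 higher. Higher calls were 59 at a control mean of at least 100, 15 at 500 (32 lower, median -0.131, difference from other genes -0.126) and 24 with at most 5% shared stretches. That difference was -0.0904 in the first set and -0.0905 in members chosen in the second set and measured in the first. The other genes' median was -0.039 with quantile normalization. Thinning gave medians of -0.049 for the other genes, -0.127 for KRAB members, -0.088 for members without KRAB, -0.142 on chromosome 19, -0.094 on other chromosomes, -0.020 for ZBTB, -0.209 for ZSCAN and ZKSCAN, -0.057 for ZFP, 0.551 for KLF and -0.017 for other kinds. The first set gave -0.035 for ZBTB, 0.119 for ZFP, 0.594 for KLF and -0.014 for other kinds; KLF was 0.645 in the second set and 0.549 with a pseudocount of 10. Of 713 values for 31 named genes, 698 kept direction and call, 8 (ZNF146 and ZNF761) lost the call and 7 (ZNF398, ZNF280D and ZNF480) gained it; 0 reversed. The cause of these shifts was not tested. Thinning gave 70 lower and 28 higher members, and it also lowered the median of the other genes at that level.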

Other observations

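Gene families related to the ZNF members by name or by zinc finger gave these counts, beside 27.4% lower and 27.8% higher among all genes tested. Of 33 ZBTB genes, 11 (33.3%) were lower and 8 (24.2%) higher, and of 70 genes for other kinds of zinc finger 25 (35.7%) and 20 (28.6%). These shares were close to those of the members, though not at a like control level. The median log2 fold changes were 0.022 for ZBTB and 0.025 for the other kinds. The members' median was -0.068. Both positive medians turned negative after thinning and in the first library set. Of 12 KLF genes, which encode short zinc finger factors induced by many stimuli, 10 were called higher and 0 lower, with a median log2 fold change of 0.62 and 7 at 1.5-fold or more. KLF6 went from 2260 ± 76.8 to 7131 ± 268 units (SD, n = 6 and 5), a log2 fold change of 1.66 (limma adjusted p 5.35e-14). Of 15 ZSCAN and ZKSCAN genes, 6 were lower and 0 higher, with a median of -0.16 and ZSCAN12 at -0.55. Of 17 ZFP genes, 1 was lower and 8 higher, among them ZFP36L1 and ZFP36L2 (0.27 and 0.45), which promote decay of mRNAs with AU-rich elements, while ZFP36 itself fell by 0.33. After thinning to equal depth, 2 ZFP genes were lower and 4 higher and the median turned from 0.058 to -0.057; in the first and second library sets 4 and 5 were higher. The 276 tested ZNF genes under the control level had 41 lower and 47 higher, with a median of -0.014. Differences between these lists were not tested.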
